A study of Mus musculus with 24 samples.

Results

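The question here is which genes of intestinal organoids responded to dFz7-21 early, which responded late, and which kept or turned their response. All 24 libraries of the series entered, so the members are 24 of 24. Organoids grown from mouse small intestine are cultures of gut epithelium in which stem cells and their differentiated descendants grow together. They were given DMSO (the vehicle), Fz7-21S or dFz7-21, and polyadenylated RNA was sequenced at 6 h and at 24 h, with 4 libraries in each of the 6 groups. By the series' own account dFz7-21 is a peptide blocker of the Wnt receptor Frizzled 7. Dose, medium, mouse strain and age are not in the labels, which also do not say what Fz7-21S is. Each group's value was the log2 of its fitted mean level, so a single high library can weigh heavily. At each time the effect of dFz7-21 was its value minus the mean of the DMSO and Fz7-21S values, 4 libraries against 8. The interaction was the effect at 24 h minus the effect at 6 h.

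Wnt ligands bind Frizzled receptors together with LRP5 or LRP6, which stabilises beta-catenin and lets TCF and LEF factors switch on their target genes. In the crypts of the gut this signal maintains the Lgr5 stem cells, and R-spondins, the ligands of Lgr5, strengthen it by removing the ubiquitin ligases Rnf43 and Znrf3 from the surface. BMP signals oppose stem cell identity and switch on the Id genes and the inhibitory Smads. Cells that leave the stem cell compartment become absorptive enterocytes or secretory goblet, Paneth, enteroendocrine or tuft cells.

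Library totals ran from 20446610 to 33102993 counts (median 25095816), and 15429 of 36528 genes had enough reads to be tested. The epithelial genes Epcam (1468 to 2492 CPM), Cdh1 (956 to 2202 CPM) and Vil1 (779 to 1365 CPM) were high in every library, CPM being a gene's count scaled to a common library size. The summed level of 18 mesenchymal marker genes was 364 and 346 CPM in DMSO 6 h replicates 1 and 2 and 1718 CPM in dFz7-21 24 h replicate 3. In the other 21 libraries it was 11.6 to 20.2 CPM. Summed immune markers (14 genes) were 10.8 to 11.6 CPM in the dFz7-21 24 h libraries and at most 8.71 CPM elsewhere. Itgam alone had 8.97 to 9.4 CPM in the dFz7-21 24 h libraries, against 2.91 to 6.23 CPM in the 24 h controls. The immune markers Lyz2, Cd68 and Csf1r had at most 1.5 CPM in the former and at most 1.83 CPM in the latter. Summed endothelial and glial markers (13 genes) were 8.13 to 16.2 CPM. The root mean square distance of a library from its group's mean over genes was 0.257 to 0.396 on the log2 scale in 21 libraries. It was 0.509 in DMSO 24 h replicate 2, 0.664 in Fz7-21S 24 h replicate 4 and 0.705 in dFz7-21 24 h replicate 3. In bulk RNA, fewer cells of a type and less RNA per cell cannot be told apart.

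The promoters of 3 genes that carry the classes described below are shown first, because they stand for a gene that fell at both times (Sp5), a gene whose early rise shrank (Id2) and a gene that fell late (Olfm4). Each is the 250 bases before the RefSeq start on GRCm38.p6, 5′ to 3′ on the gene's own strand. Capitals mark CTTTGAT, a core to which TCF and LEF factors bind, in Sp5, and GGCGCC, a core to which Smads of the BMP pathway bind, in Id2. Olfm4 is at chr14:80000052-80000301 on the plus strand, Sp5 at chr2:70474673-70474922 on the plus strand and Id2 at chr12:25096093-25096342 on the minus strand.
Sp5: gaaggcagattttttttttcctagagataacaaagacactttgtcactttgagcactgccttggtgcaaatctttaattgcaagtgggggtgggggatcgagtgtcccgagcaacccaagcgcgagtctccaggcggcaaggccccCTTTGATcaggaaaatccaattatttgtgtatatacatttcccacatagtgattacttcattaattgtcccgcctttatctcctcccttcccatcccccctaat
Id2: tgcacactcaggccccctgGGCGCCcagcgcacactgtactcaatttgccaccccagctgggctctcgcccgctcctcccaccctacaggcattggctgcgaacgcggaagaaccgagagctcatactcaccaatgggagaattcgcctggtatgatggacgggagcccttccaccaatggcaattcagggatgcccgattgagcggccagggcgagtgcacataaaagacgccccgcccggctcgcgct
Olfm4: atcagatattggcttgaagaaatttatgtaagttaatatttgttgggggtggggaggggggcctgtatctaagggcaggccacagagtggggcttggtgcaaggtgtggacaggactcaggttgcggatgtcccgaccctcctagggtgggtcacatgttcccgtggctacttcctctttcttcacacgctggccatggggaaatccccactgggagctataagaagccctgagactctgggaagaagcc

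CTTTGAT, read on both strands in the 250 bases before and the 50 after each start, was in the promoters of 3.23% of the 11334 tested genes that have one in the RefSeq table. The share was 3.74% for genes that fell at both times, 2.39% for late-only genes that fell, 2.26% for early-only genes and 3.57% for reversed genes. GGCGCC reads the same on both strands and does not overlap CTTTGAT. It was in 23.4% of all these genes, in 29.7% of genes that fell at both times, in 24.5% of genes that rose at both times and in 16.7% of reversed genes. These are matches of letters, given without a test.

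In the fit of all 24 libraries, more genes passed the test at 24 h than at 6 h. At 6 h, 1974 genes (12.8%) passed the test, 1032 higher (6.69%) and 942 lower (6.11%), and 65 of them differed by at least 2-fold. At 24 h, 6000 genes (38.9%) passed, 3004 higher (19.5%) and 2996 lower (19.4%), and 725 of them differed by at least 2-fold. With each time fitted alone the counts were closer, 3968 at 6 h and 4294 at 24 h. The classes below rest on the fit of all libraries. Counts of list members below are to be read against the 12.8% and 38.9% of all genes. The interaction passed in 2338 genes (15.2%): the effect was higher at 24 h than at 6 h in 1256 (8.14%) and lower in 1082 (7.01%). All tests are edgeR's quasi-likelihood test, with p-values adjusted by Benjamini-Hochberg over the 15429 genes and a threshold of 0.05. The median over all genes was 0.01 for the effect at 6 h, -0.01 at 24 h and -0.02 for the interaction. The same interaction between both kinds of control, Fz7-21S minus DMSO, passed in 0 genes (0%) in edgeR. It had 1360 genes at an uncorrected p below 0.05, and DESeq2 called 8.

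Genes were then sorted by where they passed. Early-only genes passed at 6 h and not at 24 h with the interaction called, 165 in all (1.07%). Late-only genes passed at 24 h and not at 6 h with the interaction called, 1699 in all (11%). Kept genes passed at both times in the same direction, 1328 in all (8.61%). Reversed genes passed at both times in opposite directions with the interaction called, 115 in all (0.745%). Another 3224 genes (20.9%) passed at 1 time only, 366 at 6 h and 2858 at 24 h, while the interaction was not called, so no difference between the times is shown for them. For 76 genes (0.493%) the interaction passed and neither time did, and 8822 (57.2%) passed no test. Genes named for a class below are those with the largest values in it, among well expressed genes whose dFz7-21 and control libraries did not overlap, so they describe its extremes.

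**Figure D1:**
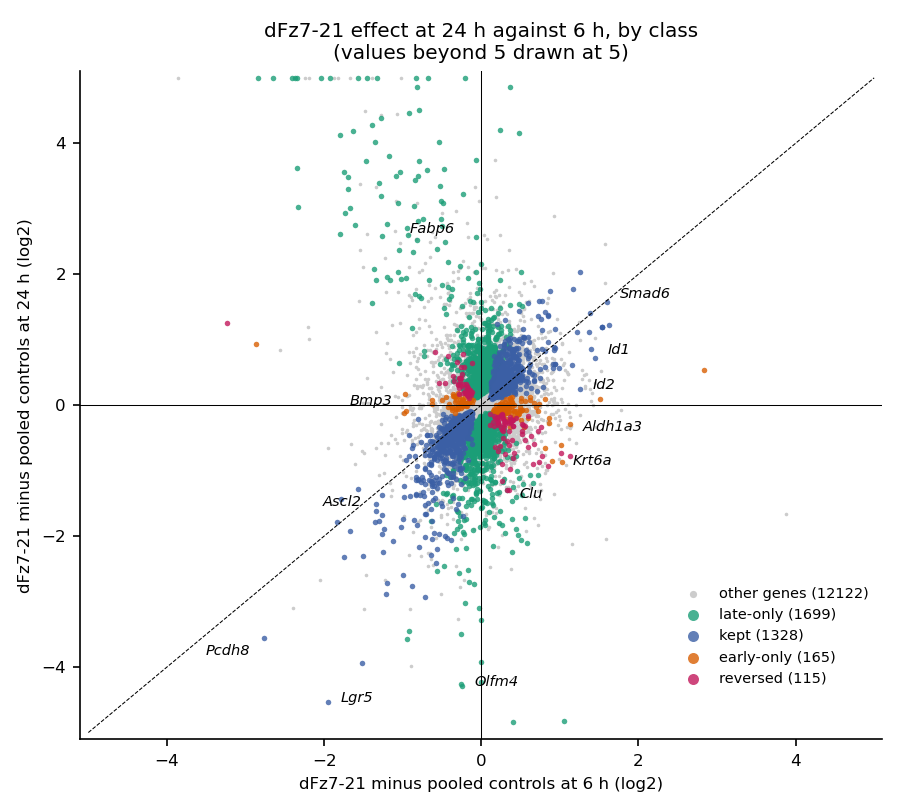
Each point is 1 of 15429 genes, with the dFz7-21 effect against the pooled controls at 6 h on the x axis and at 24 h on the y axis, both in log2, and the dashed line marks equal effects. Kept genes lie at the lower left and upper right, early-only genes along the x axis, late-only genes along the y axis, and the 115 reversed genes at the upper left and lower right.

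Many stem cell genes fell at both times. Of the 1328 kept genes, 619 were higher and 709 lower than the controls. The fall or rise was larger at 24 h in 269 (1.74% of genes tested, 119 higher and 150 lower), smaller at 24 h in 14 (0.0907%), and not called different in size in 1045 (6.77%). The median absolute effect of the kept genes was 0.29 at 6 h and 0.38 at 24 h on the log2 scale. Among the 34 tested stem cell genes, 24 were called lower and 1 higher at 6 h, against 33 and 1 at 24 h. The list's median effect was -0.48 at 6 h and -1.38 at 24 h. In 24 members the fall was kept, and it grew in 16 of these.

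Lgr5, the R-spondin receptor that marks crypt base stem cells (chromosome 10, 115450314 to 115587780), fell early and fell further. At 6 h its level was 10.3, 11.4, 10.1 and 11 CPM with dFz7-21, against 35.7 to 50.4 CPM (median 41.2) in the 8 controls. At 24 h it was 4.77, 2, 4.41 and 4.11 CPM against 55.1 to 125 CPM (median 90.8). The groups did not overlap at either time, and the controls stood higher at 24 h while the dFz7-21 libraries stood lower. The log2 effect was -1.94 ± 0.16 (SE) at 6 h and -4.53 ± 0.19 at 24 h, and the interaction was -2.59 ± 0.24 (adjusted p = 5.73e-08).

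Smoc2, a secreted matricellular protein of stem cells (chromosome 17, 14279490 to 14404790), also fell at both times. Its level was 66.2 to 72.7 CPM in the 4 dFz7-21 libraries at 6 h, against 136 to 164 CPM (median 148) in controls. The level at 24 h was 148, 116, 137 and 141 CPM against 534 to 644 CPM (median 569). The dFz7-21 libraries of 24 h thus stood above those of 6 h, while the distance to the controls grew. The effect was -1.12 ± 0.06 at 6 h and -2.07 ± 0.06 at 24 h (interaction -0.96 ± 0.08, adjusted p = 6.35e-09).

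Sp5, a transcription factor gene that Wnt signals switch on, had 4.21, 5.36, 3.91 and 4.78 CPM with dFz7-21 at 6 h against 11.3 to 15 CPM in controls, and 2.80, 2.44, 2.55 and 3.84 CPM at 24 h against 10.9 to 17.9 CPM. Both times were without overlap, and the effect grew from -1.50 to -2.31 (interaction -0.81 ± 0.19, adjusted p = 0.00463). Among the other stem cell genes whose fall grew, the RNA-binding protein genes Msi1 (interaction -1.83) and Mex3a (-1.66) had the largest differences after Lgr5. Axin2, a scaffold of the beta-catenin destruction complex and a feedback target, went from -0.36 ± 0.09 to -1.42 ± 0.10. The ubiquitin ligase Rnf43 went from -0.27 ± 0.05 to -0.96 ± 0.06.

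For other genes of this kind a difference between the fall at 6 h and that at 24 h was not called. Ascl2, the transcription factor that specifies stem cells, was at -1.27 ± 0.15 at 6 h and -1.67 ± 0.16 at 24 h, an interaction of -0.41 (95% interval -0.85 to 0.04, adjusted p = 0.231). Pcdh8, a protocadherin, led the kept falls by the naming rule, which ranks on the smaller of both effects. Its level was 0.930, 0.906, 0.997 and 0.715 CPM with dFz7-21 at 6 h against 4.77 to 8.5 CPM, and 4.29, 1.35, 1.21 and 2.63 CPM at 24 h against 19.7 to 32.1 CPM. The dFz7-21 levels were lower than every control at both times. Its effect was -2.76 ± 0.27 and -3.56 ± 0.24 (interaction -0.80, 95% interval -1.58 to -0.02, adjusted p = 0.169). Rgcc, a cell cycle regulator, was at -1.84 and -1.79 (interaction 0.05, interval -0.39 to 0.49). Scn2b, a sodium channel subunit, was at -1.68 and -1.92 (interaction -0.25, interval -0.61 to 0.11). Znrf3 was at -0.32 and -0.73 (interaction -0.40, adjusted p = 0.0773), and its fall grew when the 4 libraries listed below were left out.

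The Wnt target list, which shares members with the stem cell list, had 12 of 26 tested members lower and 2 higher at 6 h. At 24 h 17 were lower and 4 higher, with medians of -0.11 and -0.75. The interaction was called in 15, each time lower. Myc moved from -0.17 to -0.49 (interaction -0.32 ± 0.06, adjusted p = 0.000317). Nkd1, Apcdd1 and Lef1 were late-only, at 0.12, 0.01 and 0.26 at 6 h and -1.28, -1.56 and -1.84 at 24 h. Of 29 Wnt receptor and ligand genes, 2 fell and 1 rose at 6 h, and 12 fell and 2 rose at 24 h. These are 10.3% and 48.3% of the list, against 12.8% and 38.9% of all genes. Fzd7, the receptor named as the peptide's target, had 46.6 to 50.1 CPM with dFz7-21 at 6 h, among its controls (45.7 to 50.2 CPM). At 24 h it had 27.5, 25.4, 40.6 and 27.3 CPM against 31.7 to 58 CPM. Replicate 3 lay within the controls and the other 3 below all of them, with an interaction of -0.70 ± 0.15 (adjusted p = 0.00145). The compound acts on the protein, so this transcript is no check of the labels.

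**Figure D2:**
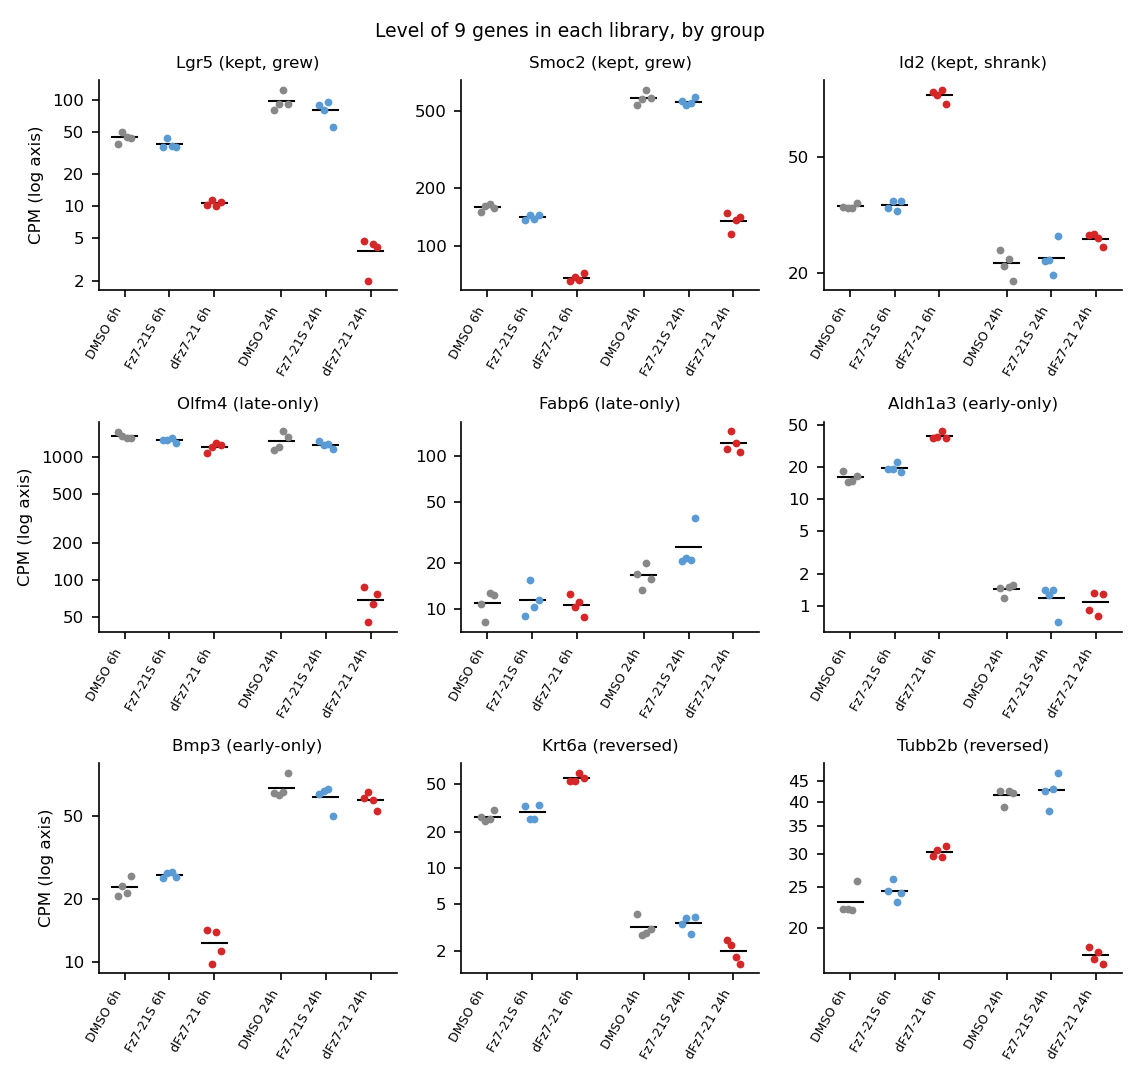
Level of 9 genes in CPM on a log axis, 1 point per library, with DMSO in grey, Fz7-21S in blue, dFz7-21 in red and a bar for each group's mean. Lgr5 and Smoc2 were below the controls at both times, Olfm4 and Fabp6 left them at 24 h, Aldh1a3 and Bmp3 differed at 6 h, and Krt6a and Tubb2b were above the controls at 6 h and below them at 24 h.

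Replication genes fell at both times, and a difference in size was called for few of them. Of 36 tested genes of S phase and DNA replication, 34 fell at 6 h and 35 at 24 h, with medians of -0.39 and -0.48. In 34 the fall was kept. The interaction was called higher for E2f2, a transcription factor of the cell cycle, and lower for Tipin, which protects replication forks. E2f2 was the 1 member that rose at 24 h, with 136 to 156 CPM against 85.5 to 109 CPM in controls. The call for Tipin held in 22 of the 33 alternative settings described below. The helicase subunit Mcm6 had 176, 176, 169 and 190 CPM with dFz7-21 at 6 h against 237 to 271 CPM, and 172, 162, 177 and 183 CPM at 24 h against 244 to 271 CPM. Its levels did not overlap the controls at either time, and the effects were -0.50 ± 0.04 and -0.58 ± 0.04 (interaction -0.07, interval -0.20 to 0.05). The licensing factor Cdc6 was at -0.63 and -0.70, and the replication clamp Pcna at -0.31 and -0.38. The G2 and mitosis list differed from this picture in its counts: 2 of 30 fell and 1 rose at 6 h, and 12 fell at 24 h. That is 10% and 40% of the list, near the 12.8% and 38.9% of all genes. With DMSO alone as control 16 fell at 24 h, and with Fz7-21S alone 8 fell. Mki67, a marker of cycling cells, was at 0.08 ± 0.11 and -0.04 ± 0.11 (adjusted p = 0.73 and 0.821). At 24 h it had 316 to 378 CPM with dFz7-21. Fz7-21S 24 h replicate 4 had 203 CPM and the other controls 348 to 432 CPM. Ribosome biogenesis genes fell in 17 of 30 at 6 h and 22 of 30 at 24 h, with medians of -0.18 and -0.27 and 14 kept. That is 56.7% and 73.3% of the list, against 12.8% and 38.9% of all genes. With Fz7-21S alone as control 9 fell at 6 h and 7 were kept.

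Cholesterol synthesis genes rose at both times. Of 26 tested, 15 rose and 1 fell at 6 h and 21 rose at 24 h, 15 of them kept, with medians of 0.20 and 0.26. The interaction was called higher in 2. Without the 4 libraries listed below it was called higher in 10, and the medians were 0.17 and 0.31. Over all genes the interaction calls went from 2338 to 4309 with the same change. Hmgcs1, which makes the precursor of mevalonate, was at 0.28 ± 0.05 and 0.44 ± 0.05 (interaction 0.17, interval 0.02 to 0.31, adjusted p = 0.126). The interferon and NF-kB list had 13 of 32 members higher at 6 h and 17 at 24 h (1 was lower). That is 40.6% and 56.2% of the list, against 12.8% and 38.9% of all genes. The rise was kept in 10 members, among them Irf7 (0.42 and 0.75) and Stat2 (0.57 and 0.37). Single genes with large kept rises were Acer1, an alkaline ceramidase (1.37 ± 0.14 and 1.12 ± 0.12), Nos2, the inducible nitric oxide synthase (0.94 ± 0.07 and 1.16 ± 0.07), and Dhx58, a sensor of the RIG-I family (0.77 ± 0.15 and 0.86 ± 0.16).

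Among the rises that shrank were Id genes. Of 21 tested BMP and Id target genes, 9 rose and 4 fell at 6 h, and 8 rose and 7 fell at 24 h. The interaction was called in 10, each time lower, and the median went from 0.21 to 0.07. Of these 10, 2 were kept rises that shrank, 1 was early-only and 1 was reversed. The others were 4 falls that grew and 2 late-only falls. The median at 24 h was -0.08 without the 4 libraries listed below. The Id genes encode helix-loop-helix proteins that bind other such proteins and keep them off DNA. Id2 (chromosome 12, 25093799 to 25096092) had 83.6, 81.5, 85.3 and 76.2 CPM with dFz7-21 at 6 h against 32.6 to 35.4 CPM (median 33.6). The 24 h libraries had 26.9, 27.2, 26.4 and 24.5 CPM against 18.8 to 26.7 CPM (median 22). The groups stood far apart at 6 h and overlapped at 24 h, where the highest control was Fz7-21S replicate 4. The effect was 1.26 ± 0.06 at 6 h and 0.25 ± 0.07 at 24 h (interaction -1.01 ± 0.09, adjusted p = 4.07e-08).

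Id1 had 201, 240, 225 and 227 CPM at 6 h against 71.9 to 86.5 CPM, and 74.8, 68.2, 74.8 and 77.7 CPM at 24 h against 35.3 to 69.8 CPM. It overlapped with 1 control at 24 h, again Fz7-21S replicate 4, and the effect went from 1.45 ± 0.11 to 0.72 ± 0.11 (interaction -0.73 ± 0.16, adjusted p = 0.00218). Epb41l1, a band 4.1 protein of the membrane skeleton, went from 1.40 ± 0.09 to 0.86 ± 0.10 (adjusted p = 0.00658). The 14 kept genes that shrank were 9 that rose, Id2, Id1, Sprr2a3, Epb41l1, Irf9, Eif4e3, Tbx3, Lgalsl and Rnf24, and 5 that fell, among them Slc27a2, Tcf19, Pdxk and Gjb2. The inhibitory Smads did not join them. Smad6 had 6.75, 8.71, 8.08 and 7.87 CPM at 6 h against 2.1 to 3.4 CPM, and 4.10, 4.70, 6.44 and 5.27 CPM at 24 h against 1.12 to 2.53 CPM. It stood above all controls at both times, at 1.60 ± 0.16 and 1.57 ± 0.17 (interaction -0.03, interval -0.53 to 0.48). Smad7 was at 0.81 ± 0.09 and 0.82 ± 0.10 (interaction 0.02, interval -0.27 to 0.30). Id3 was at 1.54 ± 0.10 and 1.2 ± 0.10 (interaction -0.34, interval -0.63 to -0.04, adjusted p = 0.124), and its counts are uncertain since 2 further models carry identical counts.

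**Figure D3:**
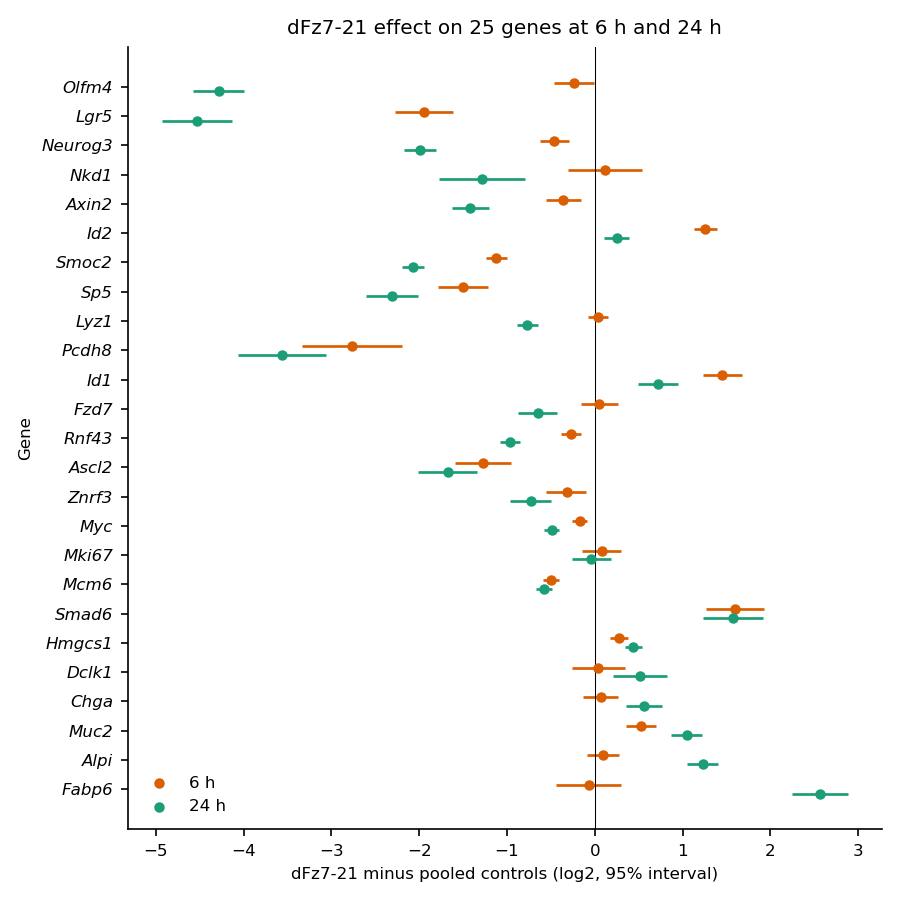
dFz7-21 effect (log2, with 95% interval) at 6 h in orange and 24 h in green for 25 genes of stem cells, Wnt and BMP signalling, the cell cycle, differentiation and sterol synthesis, ordered by the interaction. Olfm4 and Lgr5 are at the top with the lowest interactions (-4.04 and -2.59), and Fabp6 at the bottom with the highest (2.63).

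Late-only genes were the largest of the 4 classes, 1001 higher and 698 lower, with a median absolute effect of 0.09 at 6 h and 0.53 at 24 h. In 304 of them the interaction was at least 2-fold, and in 171 of these 304 the dFz7-21 libraries at 24 h lay wholly outside the controls. The same held for 1176 of all 1699 late-only genes and for 39 of the 8822 genes that passed no test. Of the 304, 179 were late-only without the 4 libraries listed below. All 9 tested mesenchymal genes rose at 24 h, and 6 were late-only. Vim, a mesenchymal intermediate filament gene, had 4.87, 4.79, 257 and 3.23 CPM there, and its interaction went from 5.66 (adjusted p = 0.0146) to 0.29 (adjusted p = 0.418) without those libraries. Of the 6 mesenchymal genes with enough reads to test in that fit, 2 were higher and 1 lower at 24 h.

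Olfm4, a secreted glycoprotein of crypt stem cells (chromosome 14, 80000302 to 80023141), had the largest late-only fall by the naming rule. At 6 h it had 1091, 1224, 1305 and 1257 CPM with dFz7-21 against 1324 to 1607 CPM (median 1446). At the later time it had 87.2, 45.1, 63.1 and 76.3 CPM against 1146 to 1643 CPM (median 1278). All 4 dFz7-21 libraries were already below the 8 controls at 6 h, but the effect there did not pass (-0.24 ± 0.11, adjusted p = 0.179). At 24 h it was -4.28 ± 0.14, and the interaction was -4.04 ± 0.17 (adjusted p = 1.02e-13).

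Other stem cell list members with a late-only fall were Gkn3, Clca3b, Igfbp4, Cd44, Cdk6, Noxa1 and Prom1. Clca3b, a chloride channel regulator, had 1228 to 1294 CPM with dFz7-21 at 6 h, above the controls (1073 to 1167 CPM), and 266, 227, 221 and 247 CPM at 24 h, below them (548 to 883 CPM). Its effect went from 0.16 ± 0.07 (adjusted p = 0.161) to -1.70 ± 0.08, and without the 4 libraries it counted as reversed. Igfbp4, a binding protein of insulin-like growth factors, went from -0.23 to -1.93 and counted as kept without them (-0.28 and -1.81). Further named falls were Kif26b, of the kinesin family (-0.20 and -2.19), and Tead2, a transcription factor of the Hippo pathway (0.10 and -1.64).

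Enterocyte genes rose late. Of 37 tested, 2 rose at 6 h, and 33 rose and 1 fell at 24 h. The list's median went from 0.00 to 0.62, the interaction was called higher in 27 and lower in 1, and 25 were late-only and higher. Ada, a purine enzyme, was the member that fell (0.03 and -0.48). Fabp6, the bile acid binding protein of the ileum (chromosome 11, 43596040 to 43601562), had 12.5, 10.3, 11 and 8.77 CPM at 6 h, among its controls (8.15 to 15.3 CPM). By 24 h this had become 111, 146, 122 and 106 CPM against 13.3 to 39.1 CPM (median 20.3). The 4 libraries stood above every control, of which Fz7-21S replicate 4 was the highest. The effect was -0.07 ± 0.18 and 2.56 ± 0.15 (interaction 2.63 ± 0.24, adjusted p = 5.73e-08).

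Slc51a, a subunit of the basolateral bile acid exporter, had 48.0, 55.9, 48.3 and 49.8 CPM at 24 h against 15.2 to 25.2 CPM, while at 6 h its 11.1 to 14 CPM lay among the controls (interaction 1.45 ± 0.14). Alpi, the alkaline phosphatase of the brush border, went from 0.09 ± 0.09 to 1.23 ± 0.08, and Ces1g, a carboxylesterase, from -0.01 ± 0.07 to 1.49 ± 0.06. The glucose transporter gene Slc2a2 (-0.14 and 1.19), the fatty acid binding protein gene Fabp1 (-0.15 and 0.89) and the sucrase-isomaltase gene Sis (0.07 and 0.84) were late-only too. Fatty acid oxidation genes, which share Fabp1 with this list, rose in 5 of 25 and fell in 1 at 6 h, and rose in 24 at 24 h, 12 of them late-only. Their median went from 0.08 to 0.45. Ppara, the receptor that governs these genes, had 32.8 to 37.9 CPM at 6 h against 33.6 to 44.6 CPM and 117 to 127 CPM at 24 h against 34.5 to 72.8 CPM. It lay among the controls at 6 h, apart from 1 library below them, and above them at 24 h (interaction 1.14 ± 0.17, adjusted p = 3.21e-05). Oxidative and metal stress genes rose in 5 of 29 at 6 h and 20 at 24 h, 10 of them late-only, led by the glutathione transferase genes Gstm3 (-0.02 and 0.94) and Gstm1 (-0.05 and 0.72). With Fz7-21S alone as control 0 of these 29 passed at 6 h and 13 rose and 1 fell at 24 h (median 0.25), while with DMSO alone 6 and 22 rose (median 0.49). Gstm3 at 24 h had 588 to 853 CPM with Fz7-21S, 435 to 533 CPM with DMSO and 991 to 1203 CPM with dFz7-21.

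Paneth cell genes fell late. Of 22 tested, 3 fell and 1 rose at 6 h, and 18 fell and 2 rose at 24 h, with medians of -0.03 and -0.63. Late-only falls numbered 11, and 6 with DMSO alone as control. Lyz1, the Paneth lysozyme, had 1058 to 1193 CPM at 6 h, overlapping its controls (1000 to 1159 CPM), and 671, 616, 579 and 576 CPM at 24 h against 951 to 1158 CPM. Its 4 libraries at 24 h were below every control (interaction -0.80 ± 0.08, adjusted p = 9.98e-08). The defensin gene Defa21 went from -0.13 to -1.19, but defensins are near-identical copies, so the split of reads among them is uncertain. Both members that rose at 24 h, Reg3g (0.08 and 1.14) and Guca2b (-0.06 and 0.59), are also known from enterocytes. The lectin genes Reg3b and Reg3a, of the same antimicrobial family, were among the largest late-only rises. Reg3b had 204, 241, 197 and 200 CPM at 24 h against 40 to 94.6 CPM (interaction 2.11 ± 0.23, adjusted p = 8.15e-07), and at 6 h its 19 to 29 CPM lay among the controls. Fcgrt, the neonatal Fc receptor, went from 0.12 ± 0.13 to 1.48 ± 0.13.

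The secretory lists held members that moved either way. Of 19 goblet cell genes, 3 rose and 3 fell at 6 h, and 9 rose and 5 fell at 24 h. That is 31.6% and 73.7% of the list, against 12.8% and 38.9% of all genes. Muc2, the main gut mucin, had 156, 165, 173 and 156 CPM at 6 h against 95.9 to 124 CPM, and 157, 170, 126 and 128 CPM at 24 h against 56 to 84.4 CPM. It stood above all controls at both times, and the rise grew (0.53 ± 0.08 to 1.05 ± 0.08, adjusted p = 0.00424). Zg16 went from 0.21 to 1.41 and the secreted protein gene Clca1 from 0.30 to 1.31, while the transcription factor gene Foxa3 went from -0.39 to -1.19. Of 33 enteroendocrine genes, 3 rose and 3 fell at 6 h, and 9 rose and 6 fell at 24 h, which is 18.2% and 45.5% against 12.8% and 38.9% of all genes. Neurog3, the factor that starts this lineage, had 13.2 to 15.2 CPM at 6 h against 17.7 to 23.2 CPM and 8.39, 7.01, 5.99 and 7.07 CPM at 24 h against 25.4 to 32.4 CPM. Its fall grew from -0.46 ± 0.08 to -1.99 ± 0.09 (interaction -1.53 ± 0.12, adjusted p = 2.50e-09). The granin gene Chga, of mature cells, was at 0.07 ± 0.10 and 0.56 ± 0.10 (adjusted p of the interaction 0.0154), with 1 control inside the dFz7-21 range at 24 h. Of 21 tuft cell genes, 0 passed at 6 h in edgeR (1 at an uncorrected p below 0.05), and at 24 h 6 rose and 2 fell, or 38.1% against 38.9% of all genes. With DMSO alone as control 3 rose. Dclk1, a tuft cell kinase, was at 0.04 and 0.51, with the interaction not called (0.48, adjusted p = 0.14). Of 19 Notch pathway genes, 3 fell at 6 h, and 9 fell and 3 rose at 24 h, the ligand genes Dll1 and Dll4 late-only (interaction -0.74 and -0.61). These are 15.8% and 63.2% of the list, against 12.8% and 38.9% of all genes.

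**Figure D4:**
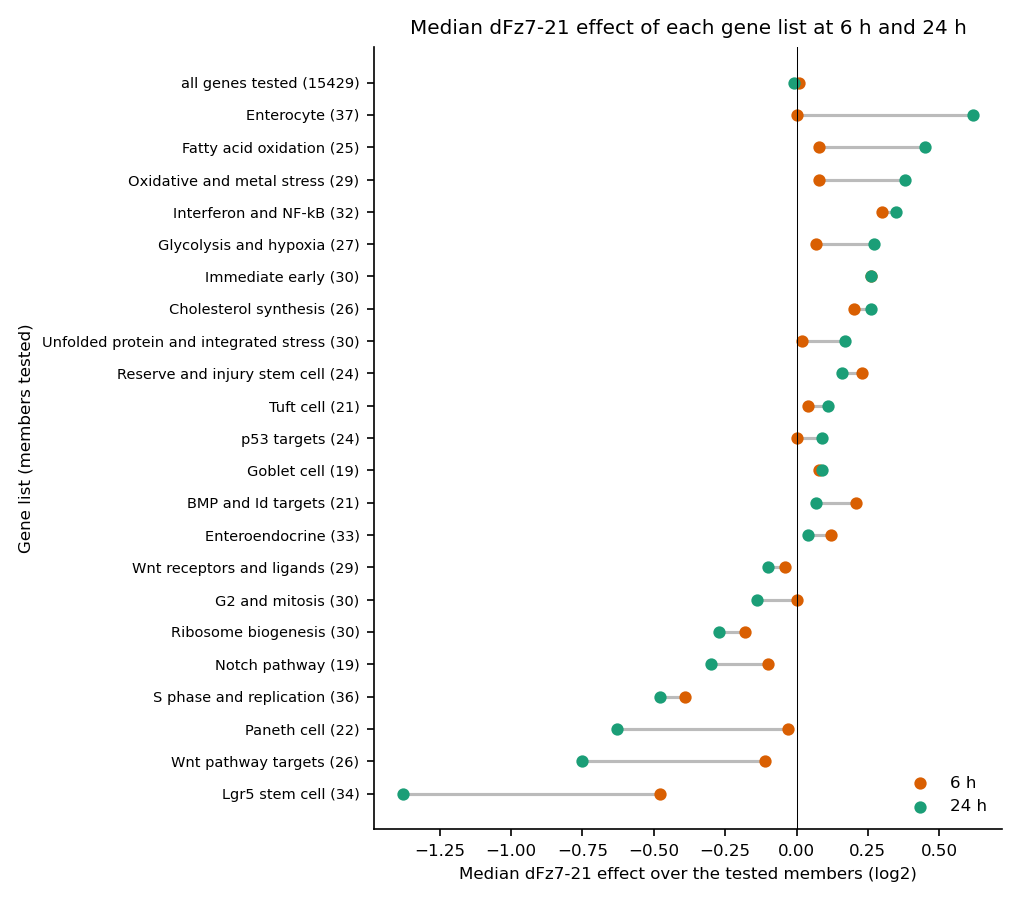
Median dFz7-21 effect (log2) over the tested members of each gene list at 6 h (orange) and 24 h (green), joined by a line, with all 15429 genes at the top. The stem cell list moved from -0.48 to -1.38 and the enterocyte list from 0.00 to 0.62. With all libraries in, S phase (-0.39 and -0.48) and cholesterol synthesis (0.20 and 0.26) moved less.

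Early-only genes were few and their effects small: 109 were higher and 56 lower at 6 h, with a median absolute effect of 0.32 at 6 h and 0.07 at 24 h. In 118 of the 165 the effect at 24 h had the opposite sign without passing the test. Of the 1699 late-only genes, 902 had the opposite sign at 6 h. Both classes require a called interaction, which favours genes with opposite signs, so these counts are partly set by the rule. Aldh1a3, which makes retinoic acid (chromosome 7, 66390892 to 66427477), had 37.6, 38.4, 43.8 and 37.9 CPM with dFz7-21 at 6 h against 14.7 to 22.5 CPM (median 18.3). The later libraries had 0.916, 1.31, 0.810 and 1.29 CPM against 0.704 to 1.57 CPM (median 1.41). The groups were apart at 6 h and overlapped at 24 h, when the level of controls was also far lower. The effect was 1.13 ± 0.10 at 6 h and -0.29 ± 0.17 at 24 h (adjusted p = 0.177), with an interaction of -1.43 ± 0.19 (adjusted p = 9.69e-06).

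Tinagl1, a matrix protein gene, had 205 to 232 CPM at 6 h against 111 to 148 CPM, and 26.5 to 32.7 CPM at 24 h among its controls (27.7 to 34 CPM, with 2 dFz7-21 libraries just below them). Its effects were 0.72 ± 0.06 and -0.09 ± 0.07. Plaur, the urokinase receptor gene, was at 0.74 ± 0.09 and 0.02 ± 0.09, Rab11fip4, of recycling endosomes, at 0.70 ± 0.11 and -0.03 ± 0.12, and Spire1, an actin nucleator, at 0.51 ± 0.10 and -0.22 ± 0.12. Plcd3, a phospholipase, was at 0.55 ± 0.16 and -0.33 ± 0.18. Its gene model overlaps that of Acbd4, so its reads are uncertain, and it counted as reversed without the 4 libraries, as did Spire1. Of the 597 tested genes on the lists, 7 were early-only (1.17%, against 1.07% of all genes). Of these 6 were higher at 6 h, Msx1, a BMP target (1.51 and 0.10), Tcf7l2, the main TCF of the gut (0.30 and 0.01), Neurod1 (0.60 and -0.20) and the immediate early genes Dusp4 (0.34 and -0.24), Dusp6 (0.28 and -0.11) and Klf10 (0.40 and -0.18). Stc2 of the stress list was lower (-0.34 and 0.14). With DMSO alone as control 2 of these 7 were early-only (Dusp6 and Tcf7l2), with Fz7-21S alone 2 (Klf10 and Neurod1), and without the 4 libraries 4. The models of Smoc2, Rnf43, Scn2b, Dhx58, Alpi, Dll4, Dusp6 and Klf10 also overlap another tested model, so their reads are uncertain in the same way as those of Plcd3.

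Bmp3, a BMP family ligand (chromosome 5, 98854415 to 98884053), led the early-only falls with Hoxa3. It had 14.2, 9.77, 13.9 and 11.2 CPM with dFz7-21 at 6 h against 20.7 to 27 CPM (median 25.3). Later, at 24 h, it had 61.0, 65.3, 59.6 and 52.8 CPM against 49.8 to 80.9 CPM (median 64.6). The dFz7-21 libraries were below all controls at 6 h and among them at 24 h. The effect was -0.99 ± 0.10 and -0.12 ± 0.09 (interaction 0.87 ± 0.14, adjusted p = 6.66e-05). Hoxa3 was at -0.96 ± 0.14 and -0.09 ± 0.13, and its gene model overlaps those of Hoxa4 and Hoxa5, so its reads are uncertain.

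Also named among the early-only falls were Aldh1b1 and Oat. Aldh1b1, a mitochondrial aldehyde dehydrogenase, had 334, 352, 333 and 362 CPM at 6 h against 486 to 575 CPM, and 1632 to 1689 CPM at 24 h against 1456 to 1876 CPM. Oat, the ornithine aminotransferase (chromosome 7, 132557475 to 132576398), had 361, 369, 354 and 380 CPM at 6 h against 500 to 553 CPM, and 1135 to 1234 CPM at 24 h against 1099 to 1193 CPM. Both were below all controls at 6 h and overlapped them at 24 h, when all groups stood higher. Their effects were -0.63 ± 0.06 and 0.08 ± 0.05 for Aldh1b1 and -0.50 ± 0.04 and 0.07 ± 0.04 for Oat. Without the 4 libraries the effects at 24 h were 0.16 and 0.14 and passed, so that both counted as reversed. Lrig3, a leucine-rich repeat membrane protein, was at -0.63 ± 0.08 and 0.02 ± 0.07, and Steap3, an iron reductase, at -0.44 ± 0.08 and 0.12 ± 0.08.

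Reversed genes turned from higher to lower in 72 cases and from lower to higher in 43. Their median absolute effect was 0.28 at 6 h and 0.31 at 24 h. The dFz7-21 and control libraries were apart at both times in 47 of the 115. They were so in 777 of the 1328 kept genes and in 1 of the 8822 genes that passed no test. Krt6a, a keratin of stressed epithelium (chromosome 15, 101689928 to 101694305), had 53, 53.3, 62.6 and 56.2 CPM with dFz7-21 at 6 h against 24.7 to 33.3 CPM (median 26.1). By 24 h its level was 2.46, 2.26, 1.78 and 1.57 CPM against 2.71 to 4.13 CPM (median 3.24). It stood above every control at 6 h and below every control at 24 h, when its level was low in all groups. The effect was 1.01 ± 0.10 and -0.73 ± 0.15 (interaction -1.74 ± 0.18, adjusted p = 2.09e-07).

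Tubb2b, a beta tubulin (chromosome 13, 34127008 to 34130354), had 29.7, 30.7, 29.6 and 31.4 CPM at 6 h against 22 to 26.2 CPM, and 18.0, 16.8, 17.5 and 16.4 CPM at 24 h against 38.1 to 47.1 CPM. It left the controls upwards at 6 h and downwards at 24 h, with effects of 0.35 ± 0.06 and -1.29 ± 0.06. Dmpk, a kinase gene, was at 0.74 ± 0.09 and -0.86 ± 0.10. Clu, which marks a rare stem cell state after injury, had 99.8 to 118 CPM at 6 h against 78.4 to 93.8 CPM, and 11.4 to 12.5 CPM at 24 h against 23.5 to 38.4 CPM. Its early rise was 0.33 ± 0.09 (adjusted p = 0.0171), and it missed the threshold without the 4 libraries (0.32, adjusted p = 0.0574) and with either control alone, while its fall at 24 h was -1.29 ± 0.11. The annexin genes Anxa1 (0.72 and -0.39) and Anxa3 (0.52 and -0.28) and the keratin gene Krt7 (0.37 and -0.25) of the same injury list were reversed as well. With DMSO alone as control these 3 counted as early-only, since their falls at 24 h did not pass (adjusted p = 0.126, 0.0628 and 0.194). On that list 10 of 24 rose and 1 fell at 6 h, and 7 rose and 8 fell at 24 h. That is 45.8% and 62.5% of the list, against 12.8% and 38.9% of all genes. The list's median was 0.23 at 6 h. At 24 h it was 0.16 with all libraries and -0.23 without the 4.

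Genes that turned from lower to higher had small early falls. Scarb1, the receptor for high-density lipoprotein (chromosome 5, 125277087 to 125341094), had 101, 99.7, 101 and 97.8 CPM at 6 h against 102 to 113 CPM, and 208, 221, 215 and 215 CPM at 24 h against 126 to 155 CPM. It lay just below the controls at 6 h and well above them at 24 h. The effects were -0.12 ± 0.04 (adjusted p = 0.0485) and 0.65 ± 0.04, and with DMSO alone or Fz7-21S alone as control the early fall did not pass (adjusted p = 0.123 and 0.107). Reep6, a protein of the endoplasmic reticulum, was at -0.22 ± 0.07 and 0.58 ± 0.07, and its early fall did not pass with either control alone (adjusted p = 0.133 and 0.0716). Slc16a10, a transporter of aromatic amino acids, was at -0.27 ± 0.06 and 0.38 ± 0.05, and Hpdl at -0.26 ± 0.08 and 0.58 ± 0.08. With Fz7-21S alone as control Hpdl counted as late-only. Of the 30 unfolded protein and integrated stress genes, Psat1 (-0.17 and 0.14) and Herpud1 (-0.16 and 0.10) turned upwards and Nupr1 (0.29 and -0.34) downwards. With Fz7-21S alone as control none of these 3 was called reversed: the effects at 24 h were 0.04 for Psat1 (adjusted p = 0.509) and 0.05 for Herpud1 (adjusted p = 0.441), and Nupr1 did not pass at 6 h (adjusted p = 0.291). With DMSO alone Nupr1 did not pass at 24 h (adjusted p = 0.739). On that list 5 rose and 4 fell at 6 h and 16 rose and 1 fell at 24 h (median 0.17). That is 30% and 56.7% of the list, against 12.8% and 38.9% of all genes. With Fz7-21S alone as control 11 rose and 2 fell at 24 h (median 0.06). With DMSO alone 20 rose and 0 fell (median 0.24).

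In the remaining lists, immediate early genes rose in 13 of 30 at 6 h (7 with Fz7-21S alone as control), and 15 rose and 5 fell at 24 h. These are 43.3% and 66.7% of the list, against 12.8% and 38.9% of all genes. Without the 3 libraries with mesenchymal transcripts 11 rose and 9 fell at 24 h, and the median there went from 0.26 to -0.02. Glycolysis and hypoxia genes rose in 3 of 27 and fell in 1 at 6 h, and rose in 15 and fell in 2 at 24 h. These are 14.8% and 63% of the list, against 12.8% and 38.9% of all genes. Without those 3 libraries, and also with Fz7-21S alone as control, 9 rose at 24 h. Of 24 p53 targets, 3 rose and 1 fell at 6 h, and 9 rose and 2 fell at 24 h, among them Cdkn1a, a cell cycle inhibitor that was kept (0.45 and 0.64). These are 16.7% and 45.8% of the list, against the same shares of all genes. Without the 3 libraries 6 rose and 3 fell at 24 h and the median turned from 0.09 to -0.04, and with Fz7-21S alone 5 rose and 2 fell. Of the 4 immune and 5 endothelial and glial markers with enough reads to test, 1 rose and 1 fell at 24 h in the immune list, and 1 rose and 2 fell in the other. At 24 h that is 50% and 60% of the tested markers, against 38.9% of all genes.

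The interaction was then computed without 4 libraries: DMSO 6 h replicates 1 and 2, dFz7-21 24 h replicate 3 and Fz7-21S 24 h replicate 4. This left 2 to 4 libraries in a group. It called 4309 genes, with 381 early-only, 2854 late-only, 1833 kept and 348 reversed. Of the original classes, 110 of the 165 early-only genes, 1334 of the 1699 late-only, 1239 of the 1328 kept and 96 of the 115 reversed were in the same class. Early-only genes that left their class mostly became reversed (32), and so did 105 of the late-only genes. The sign of the interaction was the same for all 165 early-only and all 115 reversed genes, while it differed for 39 of the late-only genes. With those 4 libraries out Fz7-21S minus DMSO had 2 genes called for the interaction. The larger counts came with Fz7-21S 24 h replicate 4 alone: without it 4083 genes were called, 385 of them early-only and 305 reversed.

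With DMSO alone as the control, 150 genes were early-only, 1490 late-only, 1138 kept and 82 reversed. With Fz7-21S alone the counts were 84, 1361, 740 and 53. Both use the same dFz7-21 libraries, so they are not independent of each other. Lgr5 (interaction -2.61 with DMSO and -2.56 with Fz7-21S), Olfm4 (-4.03 and -4.05), Fabp6 (2.91 and 2.36), Aldh1a3 (-1.69 and -1.16), Bmp3 (0.70 and 1.04), Krt6a (-1.76 and -1.71) and Id2 (-0.99 and -1.03) had the same class with each control and without the 4 libraries.

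**Figure D5:**
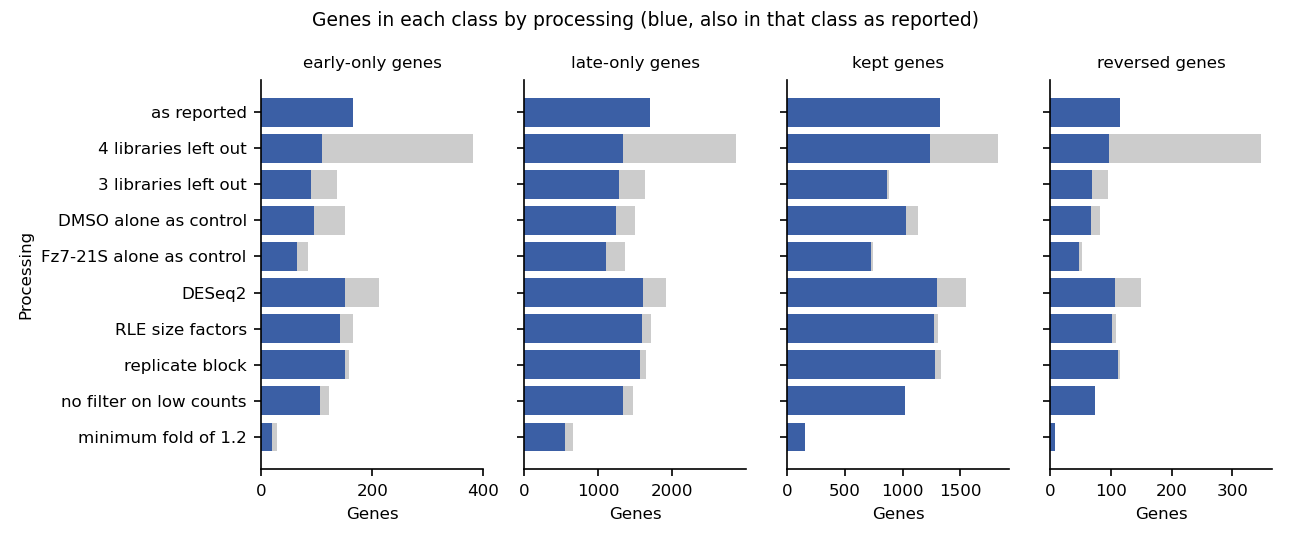
Number of genes (x axis, a scale for each class) in each of the 4 classes under each processing, with the part also in that class as reported in blue. Leaving out 4 libraries gave the most reversed genes (348), and a minimum fold of 1.2 gave the fewest (7).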

How the data were processed

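Polyadenylated RNA of 24 organoid libraries was sequenced. The authors deposited, for each of 36528 Entrez gene IDs, a count of uniquely aligned reads and an RPKM, per the file headers. Per the submitters' processing notes, GSNAP and GRCm38 were used. Annotation, filters and strand setting are not given in the sources, so antisense partners cannot be told apart. The deposited RPKM are the counts rescaled and entered no test. RefSeq gave symbols for 31049 IDs and GENCODE for 77. The other 5402 (2.54% to 3.5% of a library's counts) stayed in the tests.

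Counts were fitted in edgeR 4.0.16 (R 4.3.3; quasi-likelihood F test, robust, TMM factors, filterByExpr) with a coefficient for each of 6 groups and Benjamini-Hochberg adjustment over 15429 genes. Simulated counts were used to test the code. SE and 95% intervals come from the spread between libraries, and a count of 3 equals 0.0906 to 0.147 CPM. Whether replicates were separate cultures is not in the labels. The p-values therefore reflect only how far these libraries differ, possibly for technical reasons. Groups came from the titles.

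To be named by class, a gene needed an established symbol, mean log2 CPM at or above 2 and no overlap with controls. They were the 6 highest and 6 lowest per class (4 and 4 for reversed), plus 25 preset genes and 4 per list by interaction p. Other list members are quoted as examples. Members, the 25 lists and rules were chosen with earlier results of these data known. The alternatives were RLE factors, no filter, DESeq2 1.42.0, a replicate block, a minimum fold of 1.2, each control alone, each time alone, and libraries left out. Some genes that the rule names are not reported here.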

Additional observations from a re-analysis of the deposited data

Results flagged for a closer look

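The dFz7-21 effect at 24 h differed from that at 6 h by the test of the difference itself in 2338 genes. In addition, for the 64 genes named by class or preset, the library farthest from the others of its group of 4 was compared with Dixon's 95% critical value. It was exceeded in 31 of 384 combinations of gene and group (8.07%), where chance gives about 1 in 20.

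Fz7-21S 24 h replicate 4 gave 5 of these: it was highest for Plaur (51.9 CPM), Fabp6 (39.1 CPM), Id1 (69.8 CPM) and Neurog3 (29.2 CPM) and lowest for Lrig3 (57 CPM). Among the other 24 h controls, DMSO replicate 4 was lowest for Id3 (23 CPM) and highest for Bmp3 (80.9 CPM) and Slc16a10 (104 CPM), DMSO replicate 2 was lowest for Tubb2b (39 CPM), and Fz7-21S replicate 3 was highest for Alpi (69.2 CPM). Among dFz7-21 24 h libraries, replicate 3 was highest for Fzd7 (40.6 CPM) and lowest for Aldh1b1 (1632 CPM), replicate 2 highest for Reg3b (241 CPM) and replicate 4 lowest for Lrig3 (76.7 CPM).

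At 6 h the dFz7-21 libraries stood out as follows: replicate 1 was highest for Dhx58 (10.5 CPM) and Slc16a10 (47 CPM), replicate 2 highest for Plcd3 (12.4 CPM) and Smad7 (24.2 CPM) and lowest for Kif26b (6.86 CPM), and replicate 3 highest for Aldh1a3 (43.8 CPM) and lowest for Mki67 (193 CPM). In DMSO 6 h, replicate 4 was highest for Tubb2b (25.9 CPM) and Nkd1 (5.1 CPM), replicate 2 highest for Rnf43 (169 CPM) and lowest for Muc2 (108 CPM), and replicate 1 lowest for Reep6 (148 CPM) and Smad6 (2.1 CPM). In Fz7-21S 6 h, replicate 1 was lowest for Aldh1b1 (486 CPM), replicate 2 highest for Lgr5 (44.3 CPM) and Mcm6 (252 CPM), and replicate 4 highest for Pcdh8 (6.46 CPM).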

How the results depend on the processing

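Counts of called genes moved with the processing. Without the 4 libraries the calls were 4309 for the interaction, 3115 at 6 h, 381 early-only, 2854 late-only and 348 reversed, and 2 for Fz7-21S minus DMSO (8 in DESeq2). With Fz7-21S alone as control 1086 genes were called at 6 h, 84 were early-only, 740 kept and 53 reversed. The 6 h libraries fitted alone gave 3968 calls at 6 h, and the 24 h libraries fitted alone gave 4294 at 24 h. A minimum fold of 1.2 left 782 for the interaction, 232 at 6 h, 2138 at 24 h, 29 early-only, 652 late-only, 156 kept, 7 reversed and 1363 at 1 time only, and no filter on low counts left 74 reversed. Leaving out 1 library at a time gave 1882 to 4083 for the interaction, 1275 to 3401 at 6 h, 5073 to 7611 at 24 h, 95 to 385 early-only, 1436 to 2616 late-only, 884 to 2152 kept, 62 to 305 reversed, 2773 to 3632 at 1 time only and 0 to 0 for Fz7-21S minus DMSO. Fz7-21S 24 h replicate 4 gave the highest of each except the count at 1 time only, and the cause was not tested.

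Over 147 genes and 33 settings, 4623 of 4851 interaction values kept their sign and side of the threshold, 133 lost the call and 66 gained it. The 2 that reversed were Fn1, a mesenchymal gene, at -0.26 and -0.16 without the 3 and 4 libraries, and 27 uncalled values changed sign. Apart from the preset genes, these 147 were picked from the fit of all 24 libraries for large effects or small interaction p-values. The settings also share libraries, so these values are no measure of how stable genes in general are. With the replicate number as a block, 158 genes were early-only, 1645 late-only, 1335 kept, 115 reversed and 3220 called at 1 time only. Deviations of same-numbered libraries from their group means had correlations of -0.516 to 0.32 (median 0.0127), and 5 of 60 exceeded 0.1. For differently numbered libraries they were -0.498 to 0.586 (median -0.000974), and 10 of 180 exceeded 0.1. No pairing by number is shown, but deviations from means of 4 libraries cannot exclude one. At this depth, genes near the floor of 3 counts were left untested.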
